A study of Mus musculus with 4 samples.

Results

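Egln3 is a prolyl hydroxylase of the oxygen-sensing pathway, and it was examined together with 9 other genes of that pathway in CD4 single-positive thymocytes. The members were all probe sets that the platform annotation assigned to exactly 1 of 10 gene symbols: the hydroxylases Egln3, Egln1, Egln2 and Hif1an, the HIF subunits Hif1a and Arnt, the ubiquitin ligase receptor Vhl, and the HIF targets Bnip3, Slc2a1 and Pdk1. They numbered 27 probe sets of 45101 on the array, and 10 genes of the 18193 that had a probe set of their own. Egln3 was chosen for its higher signal on the KO arrays, so its difference is given as a description with no test, and the other 9 genes were added as its pathway.

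The series compared 2 arrays labelled KO, from CD4 Cre+ Cul3fl/fl mice, with 2 arrays labelled LM, from CD4 Cre- Cul3fl/fl mice, all in the B6 background. Cul3 is the cullin on which ubiquitin ligases with BTB-domain adaptors are built. Both groups carry its floxed alleles, and only the KO group carries Cre under CD4 control, which acts in the T cell lineage. Cells were sorted in the cold as CD4+ single-positive thymocytes that lacked CD25, the gamma delta T cell receptor and binding of the CD1d-PBS57 tetramer, a stain for NKT cells. The mice's ages were not stated. No array from mice with Cre but without floxed Cul3 was analysed here, so Cre itself and loss of Cul3 cannot be told apart. Whether replicates are different animals is not stated, so the p-values reflect only the spread of these samples, part or all of which may be technical.

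In the presence of oxygen, Egln enzymes hydroxylate prolines of the HIF alpha subunits, the VHL ligase binds the hydroxylated protein, and the proteasome destroys it. Hif1an adds a hydroxyl group to an asparagine of HIF alpha, which blocks its coactivators. When oxygen is scarce, HIF alpha persists, pairs with Arnt and induces target genes, among them Egln3 itself, so that a rise of Egln3 beside Bnip3, Slc2a1 and Pdk1 is a common sign of HIF activity. VHL works with the cullin Cul2, not with Cul3, and in T cells HIF-1 is known for driving glycolysis.

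HIF binds DNA at short motifs with the core ACGTG or GCGTG, and the 250 bases before the annotated start are shown for Egln3 and the 3 targets, since the comparison turns on them. Sequences are from RefSeq (GRCm38.p6), 5′ to 3′ on the strand of the gene, and capitals mark ACGTG or GCGTG on either strand, with overlapping matches merged.
Egln3, chr12:54203875-54204124, minus strand: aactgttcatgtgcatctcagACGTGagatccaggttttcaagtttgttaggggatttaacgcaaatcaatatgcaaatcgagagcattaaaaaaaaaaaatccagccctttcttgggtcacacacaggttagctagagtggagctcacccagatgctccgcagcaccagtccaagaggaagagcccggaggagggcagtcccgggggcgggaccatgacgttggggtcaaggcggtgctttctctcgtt
Bnip3, chr7:138909507-138909756, minus strand: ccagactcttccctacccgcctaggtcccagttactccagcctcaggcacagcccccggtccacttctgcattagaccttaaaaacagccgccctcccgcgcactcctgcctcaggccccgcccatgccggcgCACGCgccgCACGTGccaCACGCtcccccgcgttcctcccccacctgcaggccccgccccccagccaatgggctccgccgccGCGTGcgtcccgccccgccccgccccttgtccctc
Slc2a1, chr4:119108495-119108744, plus strand: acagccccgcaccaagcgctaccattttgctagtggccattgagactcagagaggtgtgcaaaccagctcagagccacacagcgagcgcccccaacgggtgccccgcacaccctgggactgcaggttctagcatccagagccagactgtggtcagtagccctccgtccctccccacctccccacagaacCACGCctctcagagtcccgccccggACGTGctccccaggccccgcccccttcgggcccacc
Pdk1, chr2:71872974-71873223, plus strand, the first of its annotated starts: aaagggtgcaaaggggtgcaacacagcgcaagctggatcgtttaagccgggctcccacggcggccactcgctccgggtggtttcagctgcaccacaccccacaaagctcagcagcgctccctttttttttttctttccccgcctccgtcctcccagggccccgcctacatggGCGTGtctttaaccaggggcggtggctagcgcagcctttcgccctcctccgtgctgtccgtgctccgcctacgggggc
Egln3 held 1 ACGTG and 0 GCGTG, with the motif beginning 229 bases before the start. Bnip3, a mitochondrial protein of mitophagy and cell death, held 2 ACGTG and 3 GCGTG, counting both strands and each of 2 overlapping matches. Slc2a1, the glucose transporter GLUT1, held 1 of each, and Pdk1, the kinase that shuts pyruvate dehydrogenase, held 1 GCGTG. Of the 12 annotated windows of the 10 members, 9 held either motif, against 38.6% of all 32851 promoter windows of the same length in the table. The member windows include second starts of Egln2 and Pdk1, and the shares were not matched for base composition. A match is a description of the letters and not a binding site.

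Every sample was summarised as 1 signal intensity per probe set, and differences are KO minus LM on the log2(signal + 16) scale after quantile normalization. That scale understates the change of dim genes. Correlations between arrays over 11253 tested genes lay between 0.961 and 0.974. The targeted gene was read first: its brightest probe set gave signals of 5380 and 5577 on the arrays labelled KO, against 5333 and 5724 on the LM arrays. Its difference was -0.01 ± 0.09 (SE), and the 5 Cul3 probe sets ranged from -0.15 to 0.31. The position of these probe sets relative to the deleted exons was not stated, and probes outside the deletion cannot check a knockout, so the genotype is taken from the labels and directions refer to the arrays labelled KO. Cd4 read 7169 and 7233 on the arrays labelled KO and 7742 and 8153 on the LM arrays, and 5 of 5 T cell markers with a probe set passed the background filter.

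Egln3 was higher on both arrays labelled KO by both of its probe sets. The brighter probe set, 1418649_at, gave signals of 792 and 677 on the arrays labelled KO and of 238 and 186 on the LM arrays. The groups did not overlap, and all 4 values lay above background, set on each array at the 95th percentile of 80 odorant and vomeronasal receptor probe sets (signals of 83.4 to 109). On the log2 scale Egln3 averaged 9.55 ± 0.17 on the arrays labelled KO and 7.84 ± 0.16 on the LM arrays (SD, n = 2 each), a difference of 1.72 ± 0.23 (SE) or 3.28-fold. The second probe set, 1418648_at, gave signals of 365 and 485 on the arrays labelled KO and of 166 and 127 on the LM arrays. Its difference was 1.42 ± 0.28 (SE) in a fit of all probe sets separately, and again the lowest array labelled KO stood above the highest LM array. In such bulk samples, more cells of a type and more RNA per cell cannot be told apart. The plot of signals by array shows this gap beside the other members.

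**Figure D1:**
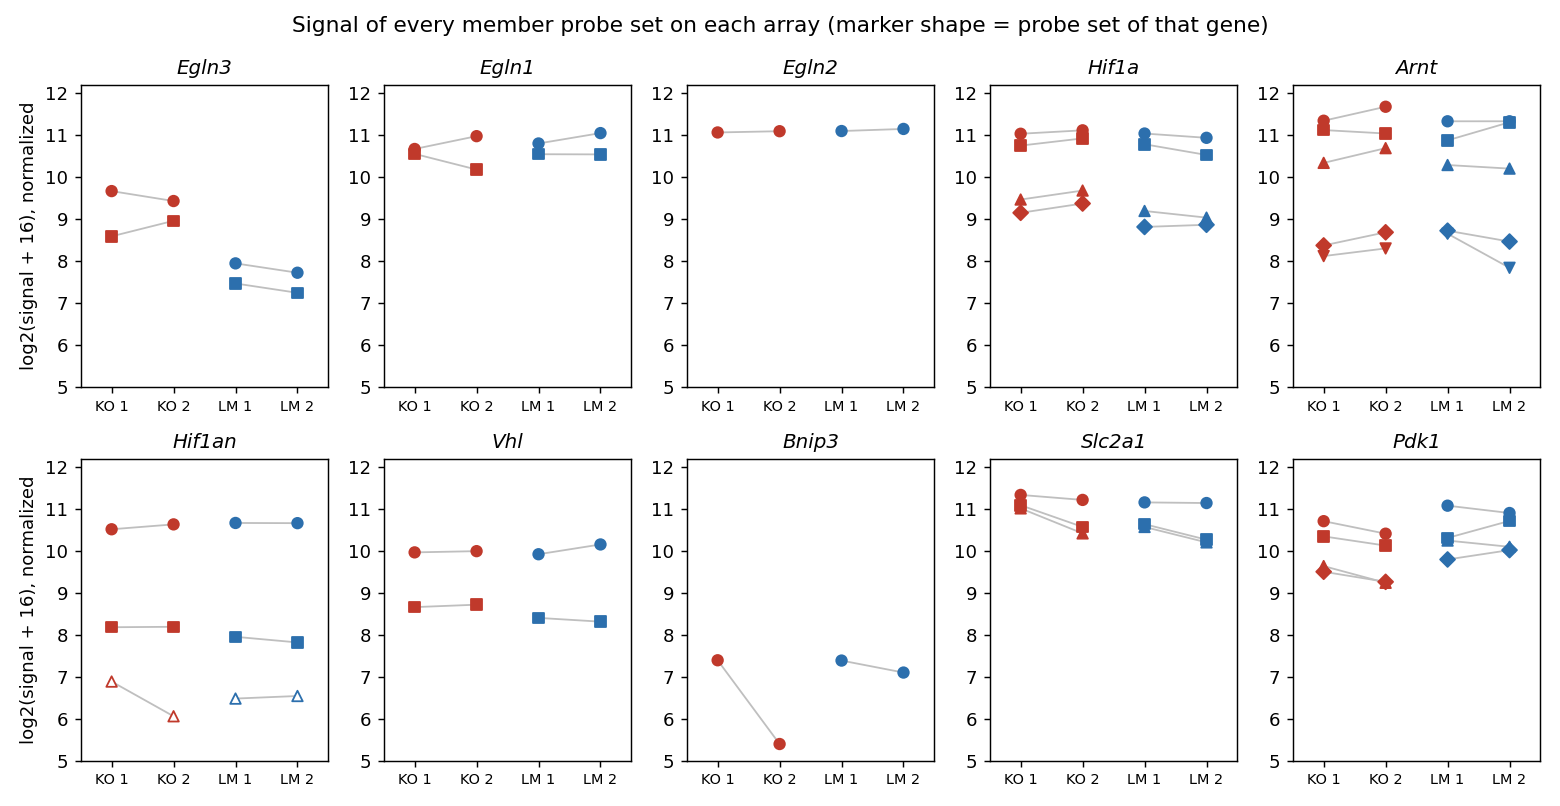
Normalized log2(signal + 16) of each of the 27 member probe sets on the 2 arrays labelled KO (red) and the 2 LM arrays (blue), 1 panel per gene and 1 marker shape per probe set; open triangles mark the Hif1an probe set that did not pass the background filter. Egln3 separates the groups on both probe sets, and Bnip3 drops on KO replicate 2 alone.

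The other hydroxylases showed small differences, and none of the 3 passed the test. Egln1, the main oxygen-dependent hydroxylase of HIF-1 alpha, gave signals of 1621 and 1991 on the arrays labelled KO and of 1765 and 2115 on the LM arrays, so its groups overlapped. Its difference was -0.10 ± 0.16 (SE, limma adjusted p = 0.929), with a 95% interval of -0.46 to 0.26, and its other probe set differed by -0.18. Single arrays set the sign of Egln1, which was 0.05 without KO replicate 1 and 0.02 without LM replicate 2. Egln2, a largely nuclear member of the family, gave 2151 and 2170 on the arrays labelled KO and 2159 and 2275 on the LM arrays. The arrays labelled KO lay just below the LM arrays after normalization. It differed by -0.04 with a 95% interval of -0.34 to 0.25 (limma adjusted p = 0.972). Hif1an, the asparaginyl hydroxylase, gave 1448 and 1560 on the arrays labelled KO and 1607 and 1623 on the LM arrays. It differed by -0.09 (95% interval -0.42 to 0.24, limma adjusted p = 0.938), while its second tested probe set differed by 0.30, so its direction depends on the probe set. The third, 1447817_at, exceeded background on 1 array labelled KO and on 0 LM arrays and was not tested. It was the 1 member probe set of 27 that the filter left out.

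Hif1a, which encodes the oxygen-regulated subunit itself, gave signals of 2110 and 2204 on the arrays labelled KO and of 2070 and 1962 on the LM arrays. The difference of this brightest probe set was 0.09 ± 0.14 (SE, limma adjusted p = 0.930), and the groups overlapped on the normalized scale. Its 3 other probe sets were also higher, by 0.18, 0.46 and 0.42. For the last 2 the groups did not overlap, with 686 and 806 on the arrays labelled KO against 580 and 499 on the LM arrays for 1416035_at. Neither passed the test in the fit of all probe sets (limma adjusted p = 0.621 and 0.681). The RNA level does not report the protein, which hydroxylation controls after translation.

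Arnt, the constant partner of HIF alpha, gave 2598 and 3236 on the arrays labelled KO and 2535 and 2615 on the LM arrays. The arrays labelled KO lay above the LM arrays after normalization, by 0.18 ± 0.14 (SE, limma adjusted p = 0.828), and the difference was 0.01 without KO replicate 2 and 0.35 without KO replicate 1. Of the 5 Arnt probe sets, 2 were higher with no overlap and 3 overlapped with differences of -0.07 to -0.01. Vhl, the receptor that recognises hydroxylated HIF alpha, gave 982 and 1001 on the arrays labelled KO and 962 and 1123 on the LM arrays. It differed by -0.06 (95% interval -0.45 to 0.33, limma adjusted p = 0.972), or by 0.06 without LM replicate 2, and its dimmer probe set differed by 0.33.

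The 3 target genes went different ways. Slc2a1 gave signals of 2574 and 2356 on the arrays labelled KO and of 2248 and 2262 on the LM arrays. The groups did not overlap, but the difference was small at 0.13 ± 0.13 (SE, 95% interval -0.17 to 0.42, limma adjusted p = 0.880). Its 2 dimmer probe sets differed by 0.38 and 0.33, and both read highest on KO replicate 1. There the probe set 1434773_a_at gave 2177 and 1499 on the arrays labelled KO, against 1574 and 1224 on the LM arrays.

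Pdk1 was lower on the arrays labelled KO by each of its 4 probe sets, opposite in sign to Egln3. The brightest gave signals of 1666 and 1345 on the arrays labelled KO and of 2126 and 1918 on the LM arrays, with no overlap. It averaged 10.56 ± 0.21 on the arrays labelled KO and 10.99 ± 0.12 on the LM arrays (log2, SD, n = 2 each), a difference of -0.43 ± 0.16 (SE, 95% interval -0.78 to -0.08). This did not pass the test over all genes (limma adjusted p = 0.458). Differences of -0.28, -0.73 and -0.52 were found with the dimmer probe sets, and 3 of the 4 separated the groups. The largest of these, 1435836_at, gave 776 and 593 on the arrays labelled KO and 1202 and 1080 on the LM arrays (limma adjusted p = 0.270 in the fit of all probe sets). Without KO replicate 2 the difference of the brightest probe set was -0.28, and without KO replicate 1 it was -0.58.

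Bnip3 was dim and rested on 1 array. It gave signals of 151 and 28.5 on the arrays labelled KO and of 157 and 113 on the LM arrays, and the value of KO replicate 2 lay below background. The difference was -0.85 ± 0.59 (SE, limma adjusted p = 0.793), but 0.15 without KO replicate 2 and -1.86 without KO replicate 1. These data therefore give no direction for Bnip3.

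**Figure D2:**
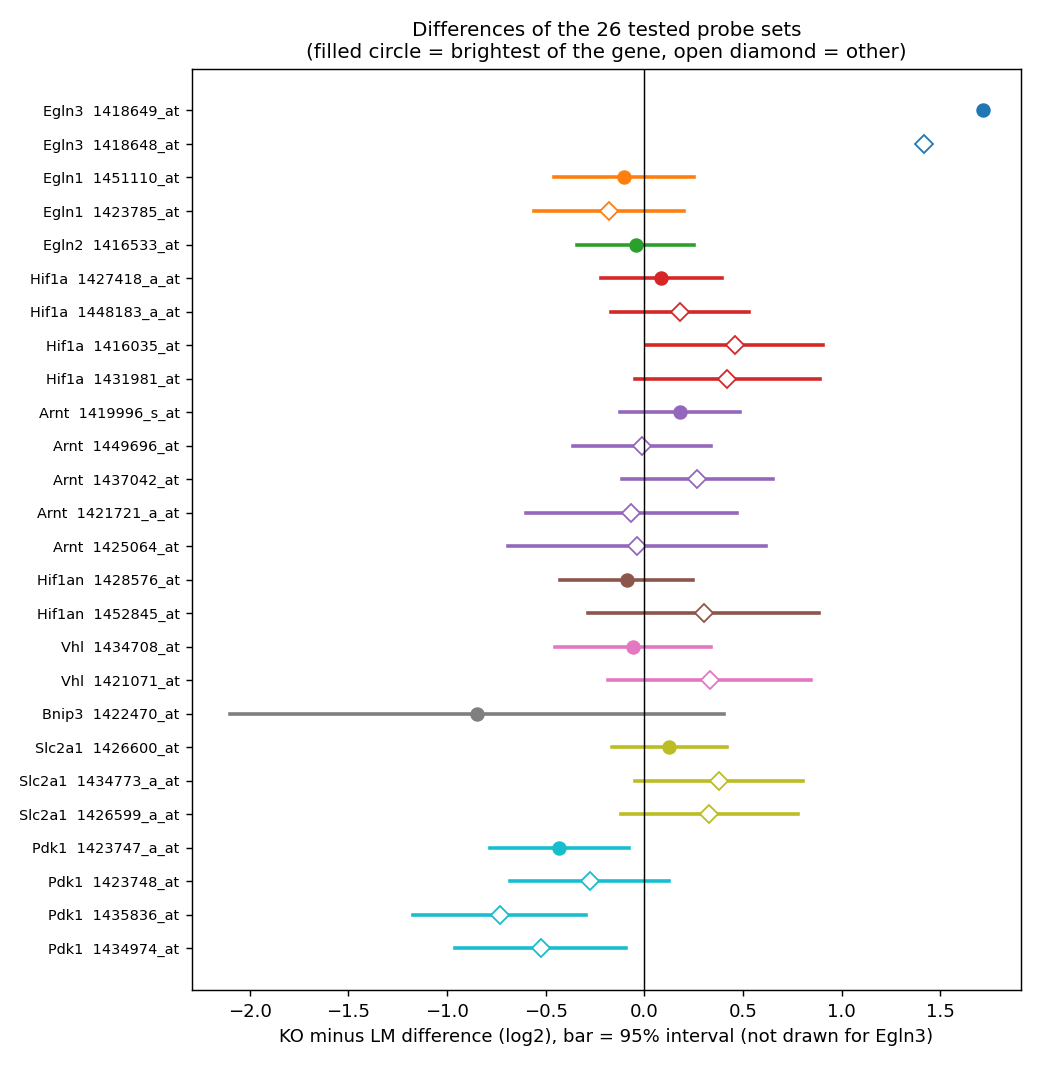
KO minus LM difference (log2) of each of the 26 tested member probe sets, with the 95% interval from limma for all but the 2 of Egln3, 1 row per probe set in the order of the genes; filled circles mark the brightest probe set of a gene and open diamonds the others. The 2 Egln3 probe sets lie at 1.72 and 1.42, the 4 Pdk1 probe sets between -0.73 and -0.28, and Bnip3 has the widest interval.

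Of the 9 members other than Egln3, 0 passed limma's test at an adjusted p below 0.05, and 1, Pdk1, lay at an unadjusted p below 0.05. Among all 11253 tested genes, 0.275% passed and 8.39% lay at an unadjusted p below 0.05. In the same 9, the groups did not overlap after normalization for 2 higher genes (Arnt and Slc2a1) and 3 lower ones (Egln2, Hif1an and Pdk1), against 19.1% and 18.3% of all tested genes. Counting probe sets, 24 of their 25 were tested: 7 were higher and 5 lower with no overlap, against 18.3% and 18.5% of the 21793 probe sets tested. The 9 differences ran from -0.85 to 0.18 with a median of -0.06, and the median over all tested genes was 0.00. The highest upper 95% limit among the 9 brightest probe sets was 0.49, for Arnt, and the highest among all 24 probe sets was 0.91, for 1416035_at of Hif1a.

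The wider pathway was read from lists chosen from general knowledge, with the earlier results of these arrays known. The HIF machinery list held 18 genes, of which 16 were tested, 1 (Rhobtb3) lay below background and 1 had no probe set of its own. None of the 16 passed limma's test and 0 lay at an unadjusted p below 0.05, while 14 of the 16 were higher and the median difference was 0.09. Of all 11253 tested genes, 5659 were higher. Cul2, the cullin of the VHL ligase, had the smallest p. It gave 899 and 1190 on the arrays labelled KO and 876 and 805 on the LM arrays, a difference of 0.31 ± 0.20 (SE, limma adjusted p = 0.758), and averaging its probe sets gave -0.24. It was 0.51 without KO replicate 1 and 0.11 without KO replicate 2. Wsb1, an ubiquitin ligase adaptor, differed by 0.13, Commd1, a regulator of cullin ligases and copper handling, by 0.20, and the ubiquitin ligase Siah1a by -0.15 (-0.29 to -0.01 with 1 array left out). Epas1, which encodes HIF-2 alpha, gave 317 and 116 on the arrays labelled KO and 96.8 and 247 on the LM arrays, with overlapping groups.

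Among HIF targets outside glycolysis, 25 of 44 listed genes were tested, 15 lay below background and 4 had no probe set of their own. Again 0 passed limma's test, 1 lay at an unadjusted p below 0.05, and 8 of 25 were higher, with a median difference of -0.05. The one was Bhlhe40, a transcriptional repressor that T cells also induce on activation. It gave 219 and 175 on the arrays labelled KO and 39.9 and 11.5 on the LM arrays, both below background, so it was at least 1.81-fold higher (limma adjusted p = 0.115). It entered the test only through the arrays labelled KO, and its p rests on LM values that have no measured level. No target named here passed the test, and Vegfa and Car9 were too dim to be tested. Ndrg1, a stress-induced gene, gave 1769 and 2273 on the arrays labelled KO and 2265 and 2435 on the LM arrays, a difference of -0.23 (limma adjusted p = 0.792) that was -0.04 when KO replicate 1 was left out and -0.41 when KO replicate 2 was. Ero1a, an oxidase of protein folding, differed by 0.27, the glycogen branching enzyme Gbe1 by 0.51 ± 0.42 (SE; 0.22 to 0.80 with 1 array left out), the histone demethylase Kdm3a by -0.05 and Ankrd37 by -0.09. The vascular growth factor Vegfa gave 21.5 and 82.8 on the arrays labelled KO and 120 and 71.4 on the LM arrays, and only LM replicate 1 exceeded background. Carbonic anhydrase Car9 did not exceed background on any array.

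For glycolysis and glucose uptake, 16 of 20 listed genes were tested, 0 passed limma's test, and 4 lay at an unadjusted p below 0.05. Of these, 3 were higher (Aldoa, Hk2 and Pgk1) and 1 was lower (Slc16a3). Among all 11253 tested genes, 475 were higher and 469 lower at that threshold. The median difference was 0.09 with 11 of 16 higher. Slc16a3, the lactate exporter MCT4, gave 34.1 and 75.1 on the arrays labelled KO, both below background, and 134 and 273 on the LM arrays. It was thus at least 2.02-fold lower on the arrays labelled KO (limma adjusted p = 0.301). It entered the test only through the LM arrays, and its p rests on KO values with no measured level. Hk2, the inducible hexokinase, gave 336 and 268 on the arrays labelled KO and 190 and 158 on the LM arrays, a difference of 0.71 ± 0.28 (SE, limma adjusted p = 0.508). Aldolase Aldoa differed by 0.30 ± 0.12 and phosphoglycerate kinase Pgk1 by 0.25 ± 0.11 (SE), and the groups did not overlap for either. With 1 array left out, Aldoa ran from 0.18 to 0.43 and Pgk1 from 0.12 to 0.39. Lactate dehydrogenase Ldha gave 6848 and 6723 on the arrays labelled KO and 7013 and 7848 on the LM arrays, a difference of -0.13. Slc2a3, the glucose transporter GLUT3, gave 3777 and 2327 on the arrays labelled KO and 2002 and 2523 on the LM arrays, and its groups overlapped. Leaving out KO replicate 1 gave a difference of 0.06, and leaving out KO replicate 2 gave 0.74.

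Close relatives of the members, 12 of 17 tested, had a median difference of 0.11 with 9 higher, and 0 passed limma's test or lay at an unadjusted p below 0.05. Pdk2, another pyruvate dehydrogenase kinase, gave 727 and 476 on the arrays labelled KO and 376 and 445 on the LM arrays. Its difference of 0.52 ± 0.25 (SE, limma adjusted p = 0.636) was opposite in sign to that of Pdk1, and it was 0.21 when KO replicate 1 was left out and 0.83 when KO replicate 2 was. The oxygenases Riox1 and Ogfod1 differed by -0.21 and 0.27, and ran from -0.32 to -0.10 and from 0.08 to 0.46 with 1 array left out.

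**Figure D3:**
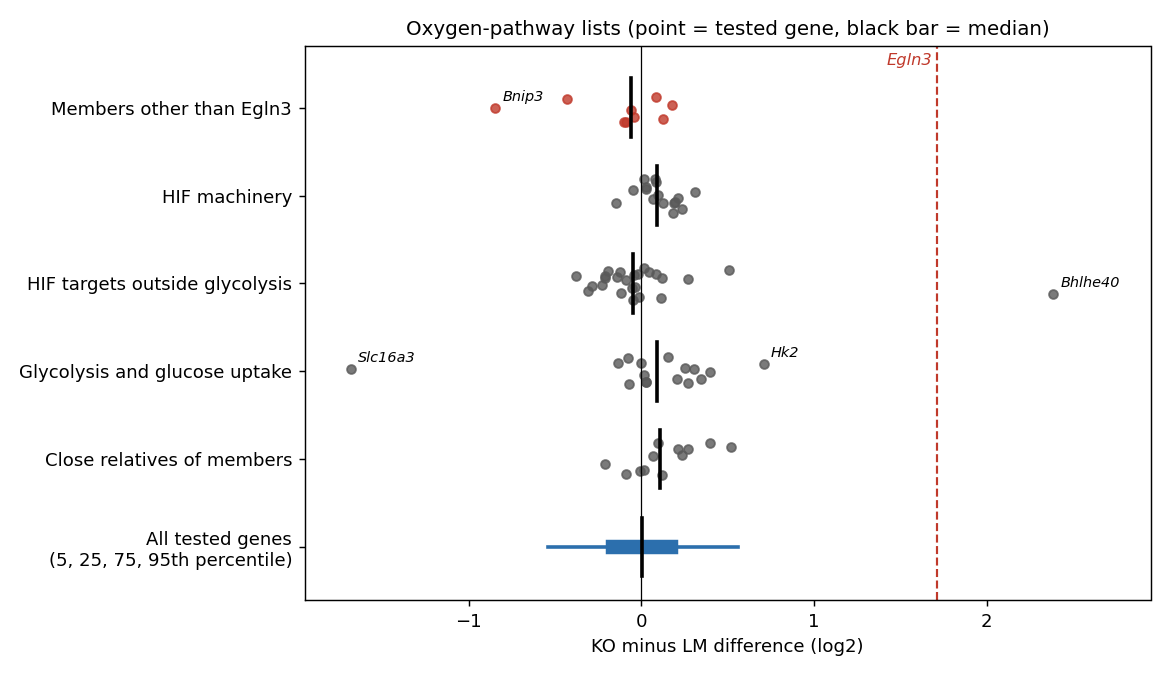
KO minus LM difference (log2) of the members other than Egln3 (red) and of the tested genes of 4 pathway lists (grey), with each list's median as a black bar; the blue bar gives the spread over all tested genes, -0.54 to 0.56 from the 5th to the 95th percentile, and the dashed line marks Egln3 at 1.72. Bhlhe40 and Slc16a3 are drawn at fitted values of 2.39 and -1.68, although 1 group of each lay below background.

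By the distance between array values centred on each gene's own mean, the 5 tested genes nearest to Egln3 over the 4 arrays were Pi16, Fam185a, the calcium-binding protein S100a4, the peptide hormone Ppy and the semaphorin Sema6c, by root mean square difference (log2). All 5 lay below background on both LM arrays and entered the test only through the arrays labelled KO. Their distances rest in part on values with no measured level, so their order carries no meaning. The distances also use the Egln3 values for which Egln3 was chosen, so these genes are a description only. Their lower bounds were 1.01-fold to 1.92-fold higher on the arrays labelled KO. S100a4 gave 245 and 177 on the arrays labelled KO and 53.3 and 39.8 on the LM arrays. Among the other members, Arnt and Slc2a1 lay nearest, at 0.80 each and ranking 2675 and 2728 among 11252 genes, and Bnip3 farthest at 1.42. Egln2, which differed by -0.04, lay at 0.89, so 0.80 is close to the distance of a gene with almost no difference. The plot of centred profiles sets Egln3 beside its 5 nearest genes and some of the other members.

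**Figure D4:**
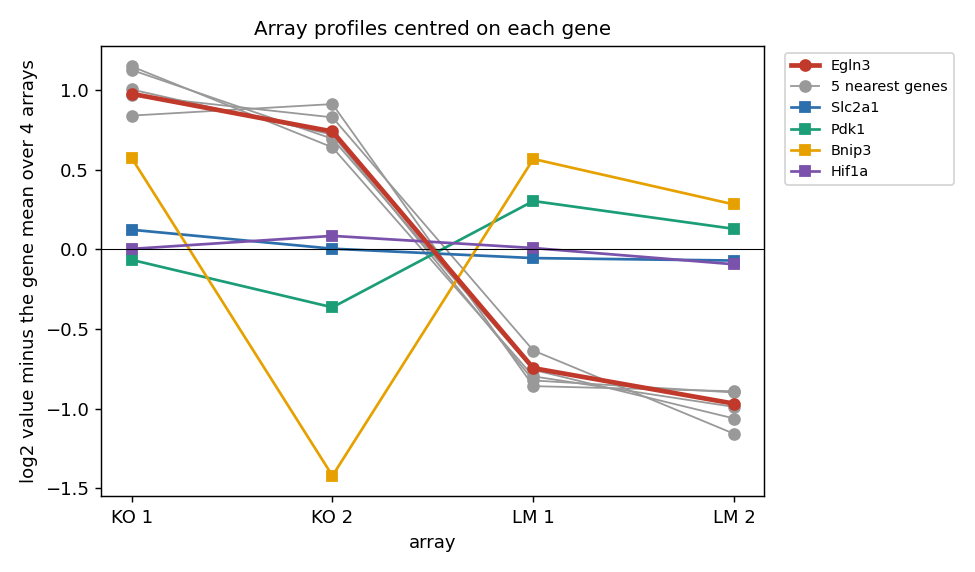
Normalized log2 values on each array minus the mean of that gene over the 4 arrays, for Egln3 (red), its 5 nearest genes (grey) and 4 other members; lines join arrays only to guide the eye. Egln3 spans 0.98 to -0.97, while Hif1a and Slc2a1 stay close to 0 and Pdk1 runs the other way. The 5 nearest genes lay below background on both LM arrays, so their LM values have no measured level.

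Markers of other cell types were read beside Egln3. Of 11 tested regulatory T cell markers 10 were higher and 1 rose, Izumo1r, against 0.133% of all tested genes. Their summed signal was 25091 and 22772 on the arrays labelled KO and 18472 and 19097 on the LM arrays. Foxp3, the factor that defines these cells, gave 794 and 363 on the arrays labelled KO and 499 and 289 on the LM arrays, above background on all 4 with overlapping groups. The sort had taken cells without CD25. Its gene Il2ra gave 963 and 949 on the arrays labelled KO and 611 and 540 on the LM arrays, with no overlap, a difference of 0.72 ± 0.19 (SE, limma adjusted p = 0.221). Of 5 tested cycling-cell markers 3 fell, against 0.142% of all tested genes, with sums of 5628 and 5906 on the arrays labelled KO and 10752 and 11752 on the LM arrays. The part of either in the Egln3 difference was not tested. Background was passed by 1 of 4 B cell markers with a probe set, 4 of 6 myeloid, 4 of 5 dendritic, 1 of 3 erythroid, 1 of 5 thymic epithelial and 2 of 2 CD8 lineage markers, and 0 of these genes passed limma's test. The 1 tested NKT marker, Zbtb16, did not pass it either.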

How the data were processed

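Per the labels' protocols, Trizol was used to extract RNA from the sorted thymocytes, and biotin-labelled targets were made by WT-Ovation Pico amplification. The table the authors deposited holds linear intensities, 1 for each probe set on each array, scaled so that each array's mean without its top and bottom 2% was 500. How probes were summarised and corrected for background was not stated. After leaving out 64 controls of 45101 probe sets, 34945 had 1 gene symbol, 932 several and 9160 none. Of the named ones, 34741 matched the RefSeq gene table.

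Intensities were taken as log2(value + 16) and quantile normalized, since array medians ran from 7.28 to 7.44. Each gene was represented by its brightest probe set and tested if above background on at least 2 arrays, which left out 6940 of 18193 genes. For a gene below background on both arrays of a group, a lower bound is given, with the dim group raised to the background level. The lmFit and trended eBayes functions of limma 3.58.1 (R 4.3.3) gave the differences, with genotype as the only term, on 11253 genes, and separately on 21793 probe sets. Two-sided p-values were adjusted with the Benjamini-Hochberg method and called at 0.05. Other probe sets of a gene take their values from the second fit. Plots used Python 3.11.15 and matplotlib 3.10.9.

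The members and lists were chosen with earlier results of these data known. Named genes were the 10 members, Cul3 and the 4 genes of each list with the smallest p. The 5 genes nearest to Egln3 and the cell type markers were also named. Epas1, Kdm3a, Ankrd37, Vegfa, Car9, Ldha, Rhobtb3, Ddit4 and Cxcr4 were added after their values were seen. Precision is limited by the number of arrays and by signal over background; the median gene had a standard error of 0.22 (log2). Alternatives were other filters, scalings and pseudocounts, eBayes without trend or robust, other ways to combine probe sets, the replicate number as a block, and each array left out.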

Additional observations from a re-analysis of the deposited data

How the results depend on the processing

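The Egln3 difference stayed between 1.53 and 1.85 over 15 alternatives, lowest with a pseudocount of 64 (1.53), and none of the other 9 members was called under any of them in which it was tested. With probe set means the signs of 2 members turned, Hif1an (0.057) and Vhl (0.14), as did those of Cul3 (0.041) and Cul2 (-0.24). Arnt kept its sign there (0.067), although its single probe sets also went both ways. Without 1 array, Egln1 ran from -0.25 to 0.050, Vhl from -0.17 to 0.059, Bnip3 from -1.86 to 0.15 and Cul3 from -0.053 to 0.032; none of these 4 was called in those fits. Among the fits that kept all 4 arrays, calls in the HIF target list numbered 1 with median centring (Bhlhe40) and 0 otherwise. Calls of this list in fits without 1 array are not counted here, since 1 group then holds 1 array. Ddit4 differed by -0.02 with all arrays and by -0.33 without LM replicate 1. Cxcr4 differed by 0.12 with all arrays and by 0.52 without LM replicate 2. Both read higher on replicate 2 than on replicate 1 in each group (log2). Ddit4 gave 13.09 and 13.83 on the arrays labelled KO and 13.17 and 13.79 on the LM arrays. Cxcr4 gave 12.01 and 13.15 on the arrays labelled KO and 12.05 and 12.87 on the LM arrays. Bhlhe40 lay below background on both LM arrays. With either LM array left out, limma's prior degrees of freedom were infinite, so a gene's variance there was the trend over all genes at its signal and not the spread of its own arrays. Over all genes 31 were called, against 0 without the filter on dim genes or without the trend (1247 and 921 at an unadjusted p below 0.05), 81 with median centring, 50 with separate probe sets and 40 to 98 without 1 array; the cause was not tested. The labels give same-numbered samples a shared number and do not say whether they share anything else. Over all tested genes their deviations correlated at -0.02, which does not describe single genes such as Ddit4 and Cxcr4. With the replicate number as a block, 43 genes were called, Egln3 differed by 1.72 and 0 of the other members were called.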
